A study of Homo sapiens with 24 samples.

Results

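S100 genes encode small calcium-binding proteins, and the transcripts of 10 of them (S100A2, S100A3, S100A4, S100A6, S100A10, S100A11, S100A13, S100A14, S100A16 and S100P) were followed by name in RNA sequencing of Panc-1 pancreatic cancer cells. Of the 10, 8 were listed in each of the gene tables of the 3 cell lines, which together held 14409 genes, 13521 of them in all 3 tables. S100A14 and S100P were in none of the tables and are not analysed here.

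Panc-1 is a cell line long established from human pancreatic ductal adenocarcinoma. All 3 derived lines carried a doxycycline (Dox) inducible Tet-One plasmid, which was empty in Tet-One, held the rat MIST1myc open reading frame in Tet-MIST1 and held the mouse PTF1amyc open reading frame in Tet-PTF1a, where MIST1 and PTF1a are bHLH transcription factors of the pancreatic acinar cell and myc is a protein tag. Each line was sequenced as 4 Control libraries (no Dox) and 4 Dox libraries (1 µg/ml for 72 h), 24 libraries in 6 groups, to ask how the transcriptome responds when either factor is induced. Cells were at passage 32 (Tet-One, Tet-PTF1a) or 33 (Tet-MIST1) and came from puromycin selection with a screen of single clones for induction, so that line, clone, passage and any sequencing run cannot be told apart when one line is compared with another. The methods of the study call the replicates biological, and no label says from which cultures they came, so the tests below measure the spread between these libraries.

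S100 proteins are EF-hand proteins that mostly work as dimers: on binding calcium they expose a surface that docks onto target proteins, and they have no known enzymatic activity. S100A10 is the exception, since its EF hands are locked in the active shape without calcium, and it holds annexin A2 in a heterotetramer at the plasma membrane. Many of these genes sit together in the epidermal differentiation region of chromosome 1, and several are raised in pancreatic ductal adenocarcinoma compared with normal pancreas.

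All 8 listed genes lay on the minus strand of chromosome 1 (hg19). S100A10 (151955386 to 151966714) and S100A11 (152004982 to 152009511) lay apart from the other 6, which ran from S100A6 (153507076 to 153508717) through S100A4 (153516095 to 153518282), S100A3 (153519809 to 153521734), S100A2 (153533585 to 153538306) and S100A16 (153579367 to 153585514) to S100A13 (153591276 to 153606568). Their exons are short. Summed exon length ran from 564 bases in S100A4 to 1402 bases in S100A13, against a median of 3183 bases over all listed genes. The exons of S100A3 and S100A4 share 70 and 54 bases with LOC101928034 on the opposite strand, and those of S100A13 share 4 bases with S100A1 and 111 bases with CHTOP, also on the opposite strand. The use of strand in counting is not given in the sources used here, so reads in these shared bases could have gone to either gene.

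The promoters of S100A2, S100A4 and S100A3, the members with the 3 largest inductions in Tet-PTF1a, and of S100A10, the member with the largest repression there, are shown as the 250 bases before the RefSeq start (RefSeq windows of GRCh38.p14, each found exactly once in chromosome 1 of GRCh37). RefSeq gives 2 starts for S100A2, and the one nearer the listed start is shown. Capitals mark an E box (CANNTG), the element bound by bHLH factors such as MIST1 and PTF1a, or a TC box (TGGGAAA or its reverse complement), which accompanies the E box in sites of the PTF1 complex. The GRCh37 positions are chr1:153538321-153538570 for S100A2, chr1:153518283-153518532 for S100A4, chr1:153521735-153521984 for S100A3 and chr1:151966336-151966585 for S100A10, all on the minus strand.
S100A2: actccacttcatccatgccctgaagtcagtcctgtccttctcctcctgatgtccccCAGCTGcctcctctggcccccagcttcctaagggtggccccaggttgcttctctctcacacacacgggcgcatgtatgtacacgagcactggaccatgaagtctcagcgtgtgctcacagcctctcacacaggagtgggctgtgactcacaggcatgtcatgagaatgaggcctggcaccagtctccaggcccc
S100A4: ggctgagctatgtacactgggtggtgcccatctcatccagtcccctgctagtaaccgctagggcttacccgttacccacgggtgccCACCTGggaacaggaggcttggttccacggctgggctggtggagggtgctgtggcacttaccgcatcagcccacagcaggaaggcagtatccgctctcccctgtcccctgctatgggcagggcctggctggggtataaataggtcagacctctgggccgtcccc
S100A3: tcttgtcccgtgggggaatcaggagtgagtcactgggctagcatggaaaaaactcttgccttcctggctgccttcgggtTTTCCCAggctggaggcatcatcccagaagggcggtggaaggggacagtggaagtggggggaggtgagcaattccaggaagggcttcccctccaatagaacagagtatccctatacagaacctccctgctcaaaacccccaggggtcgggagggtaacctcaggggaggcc
S100A10: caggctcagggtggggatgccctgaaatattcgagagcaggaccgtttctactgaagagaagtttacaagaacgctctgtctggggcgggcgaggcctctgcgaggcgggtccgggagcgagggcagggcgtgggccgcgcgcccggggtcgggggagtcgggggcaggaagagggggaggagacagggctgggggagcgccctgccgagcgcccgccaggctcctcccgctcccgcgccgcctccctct
S100A2 held a CAGCTG, the E box form, at -194 from the start shown, and S100A4 held a CACCTG at -164. The other RefSeq start of S100A2, 1943 bases after the listed start, had a CACCTG at -18 (not shown). S100A3 held a TC box at -171 and no E box, and S100A10 held neither. The RefSeq starts of S100A3 and S100A4 are those of the deposited tables, the one shown for S100A2 lies 14 bases before the listed start, and that of S100A10 lies 379 bases after it. Over the 12 windows of 300 bases that RefSeq gives for the 8 genes (250 before and 50 after each start, searched on both strands), 8 held at least 1 CANNTG, against 68.7% of all 35116 windows. CAGCTG was in 1 of the 12 windows (17.9% of all windows), CATCTG in 1 (14.7%) and TGGGAAA in 1 (7.92%). The CAGCTG and CATCTG forms are also counted among the CANNTG. These are matches of letters, and binding was not measured.

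Libraries held 17210989 to 43018494 counts, and the 8 genes together took 0.124% to 0.294% of them. Dox replicate 1 of Tet-One stood apart from the other libraries, and Dox replicate 1 of Tet-MIST1 did so to a smaller extent. Their deviations from the mean of the other libraries of the group followed exon length, which bears on every member since all are short. The members' calls in these 2 lines are given with and without Dox replicate 1. As a check of the labels, human PTF1A had 0 to 2 counts in Tet-PTF1a Control and 53 to 168 in Tet-PTF1a Dox, and it was not listed in the other tables. Since the insert is mouse PTF1a and reads were aligned to hg19, these counts could come from the insert or from the human gene, which was not tested. BHLHA15, the human MIST1 gene, had 2 to 16 and 12 to 22 counts in the same groups of Tet-PTF1a and was not listed in the other tables, Tet-MIST1 included, so the rat MIST1 insert could not be followed there. Of 6 epithelial and ductal markers (KRT7, KRT8, KRT18, KRT19, EPCAM and CDH1) 6 were listed in every table. None of 6 leukocyte, endothelial and fibroblast markers was listed, and of 5 acinar markers only PRSS1 was, in the Tet-PTF1a table.

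Without Dox, the 8 genes spanned more than 2 orders of magnitude in level, and the order was led by S100A6 in every line. S100A6, which binds annexins and the CacyBP adaptor, had 1449.5 ± 70.9 CPM per kb of exon in Tet-One Control (mean ± SD, n = 4), 1777 ± 65.0 in Tet-MIST1 Control and 857 ± 24.5 in Tet-PTF1a Control. It was the 19th, 14th and 31st highest gene of those tables by this measure and gave 43.9% to 57.9% of the member counts on average in the 3 Control groups. In Tet-One Control it was followed by S100A11, an annexin A1 partner (445 ± 6.79 CPM per kb), S100A4, a regulator of non-muscle myosin linked to cell motility (381 ± 25.8), and S100A10 (348 ± 10.2), whose libraries overlapped those of S100A4. Then came S100A13, which takes part in the export of FGF1 (23.7 ± 0.972), S100A16 (18.7 ± 1.04) and S100A2, a p53-binding member (17.9 ± 1.80), which overlapped each other, and S100A3, a cysteine-rich member best known from the hair cuticle (5.90 ± 0.207). How the authors scaled CPM is not given in the sources used here, so levels of different lines are compared by the fits below and not by CPM alone.

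**Figure D1:**
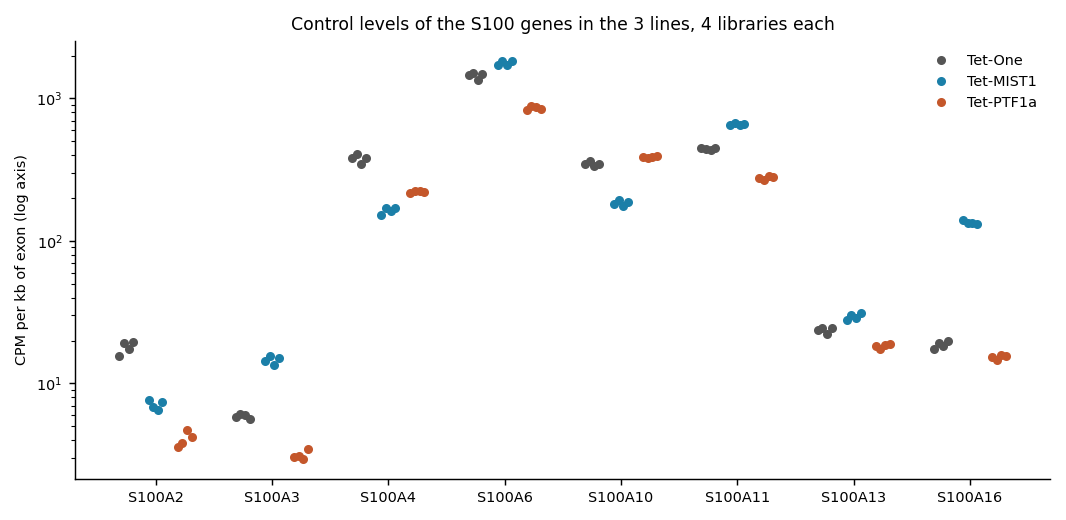
Control level of each S100 gene as CPM per kb of exon (log axis) in the 4 Control libraries of each line, 1 point per library. S100A6 was the highest member in all 3 lines, and S100A16 stood near 19 in Tet-One and 15 in Tet-PTF1a but at 135 CPM per kb in Tet-MIST1.

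Control levels differed between the lines for all 8 genes by the quasi-likelihood test of edgeR, where 80.2% of the genes tested differed between Tet-MIST1 and Tet-One and 79.7% between Tet-PTF1a and Tet-One. The count of members is therefore close to what the lines show over all genes, and it is the sizes that describe the family. S100A16 read 18.7, 20.6, 19.5 and 21.1 CPM in Tet-One Control and 150, 142, 144 and 141 CPM in Tet-MIST1 Control. It was 7.17-fold higher in Tet-MIST1 (log2 difference 2.84 ± 0.0437 SE, FDR 3.04e-20). S100A3 was also higher in Tet-MIST1 than in Tet-One (1.29 ± 0.0702), as were S100A11 (0.56), S100A13 (0.30) and S100A6 (0.29). Lower in Tet-MIST1 were S100A2 (-1.34 ± 0.0764), S100A4 (-1.22 ± 0.0482) and S100A10 (-0.91 ± 0.0364).

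In Tet-PTF1a, 7 of the 8 genes had lower Control levels than in Tet-One. S100A2 was lowest relative to Tet-One, with a log2 difference of -2.21 ± 0.0932 (FDR 2.34e-12), followed by S100A3 (-0.96), S100A4 (-0.86), S100A6 (-0.84), S100A11 (-0.76), S100A13 (-0.44) and S100A16 (-0.36). Only S100A10 was higher, by 0.08 ± 0.0275 (FDR 0.0168). With the trend of each library with exon length removed, S100A16 no longer passed the test (-0.07, FDR 0.180; 77.7% of all genes passed), S100A10 was 0.37 higher and the other 6 kept their direction. These 2 comparisons use the same Tet-One libraries.

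**Figure D2:**
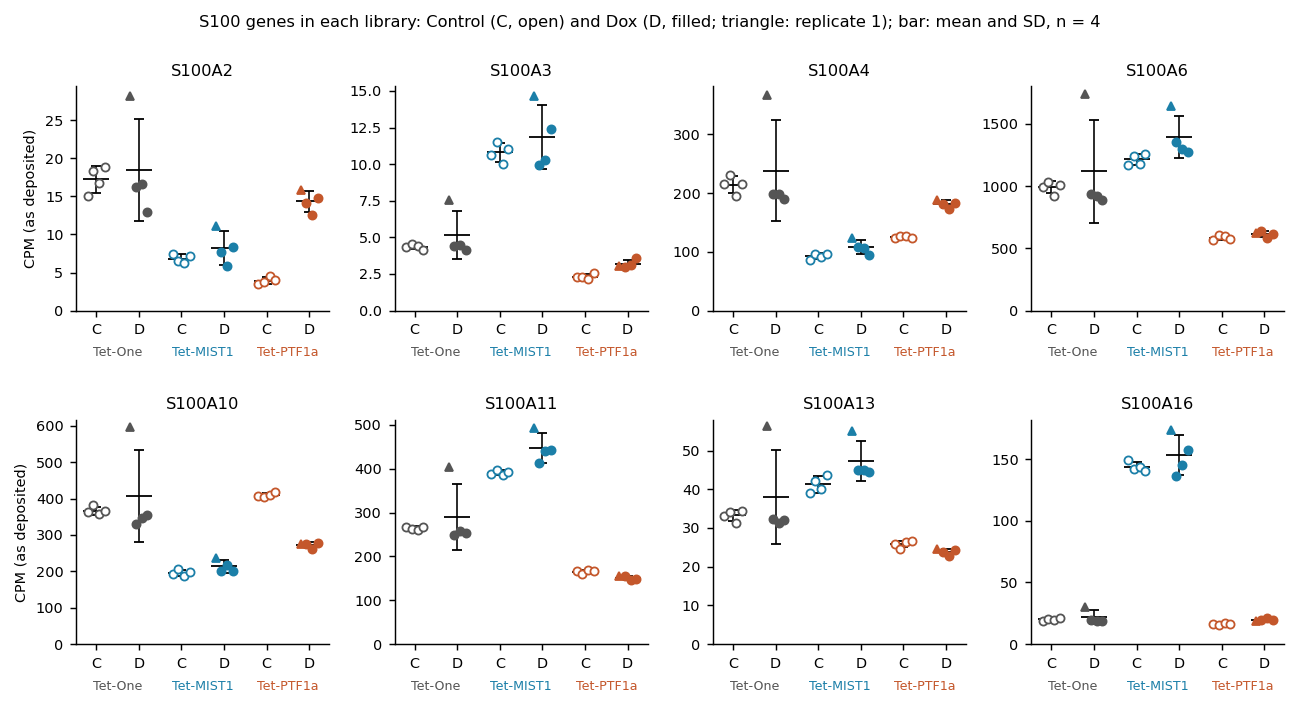
CPM of each S100 gene, as deposited, in every library of the 3 lines (C, Control, open; D, Dox, filled; triangles mark Dox replicate 1), with the mean and SD of each group of 4. S100A2 rose from 3.44 to 4.52 CPM in Tet-PTF1a Control to 12.5 to 15.8 in Tet-PTF1a Dox, S100A10 fell there, and the triangle of Tet-One lay above the other 3 Dox libraries for all 8 genes.

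With Dox in Tet-PTF1a all 8 genes changed, 5 upwards and 3 downwards, in a line where 48.2% of 14053 genes tested changed (23.8% upwards and 24.4% downwards). The sizes were uneven: S100A2 rose most, S100A4 and S100A3 rose and S100A10 fell by less, and the other 4 moved by 0.27 or less on the log2 scale. The median absolute log2 fold change of the 8 genes was 0.36, against 0.12 over all genes tested. A level in bulk RNA cannot tell apart more transcript per cell from more cells that hold it.

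S100A2 is a nuclear member of the family that binds p53 and is known as a marker of aggressive pancreatic ductal adenocarcinoma. It read 3.44, 3.70, 4.52 and 4.07 CPM in the 4 Control libraries and 15.8, 14.2, 12.5 and 14.7 CPM in the 4 Dox libraries of Tet-PTF1a, from 66 to 155 counts and 243 to 484 counts. Every Dox library lay above every Control library. The gene was 3.65-fold higher with Dox (log2 fold change 1.87 ± 0.0856 SE, FDR 1.29e-24 by edgeR), a larger change than that of 99.2% of the genes tested. Its rank by CPM per kb moved from 9198 of 14052 genes to 4856.

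S100A4, the myosin-binding member, stood at 123, 126, 127 and 124 CPM in Control and at 189, 182, 173 and 183 CPM in Dox. The groups did not overlap, and the gene was 1.46-fold higher (log2 fold change 0.54 ± 0.0264, FDR 1.99e-23). With Dox it passed S100A10 and S100A11 in the order of levels per kb, from the fourth place to the second. S100A3, which shares bases with the same antisense gene as S100A4, was the member with the fewest counts (41 to 97 in Control and 53 to 117 in Dox). It moved from 2.26, 2.30, 2.18 and 2.55 CPM to 3.04, 2.97, 3.14 and 3.56 CPM, again without overlap (0.45 ± 0.129, FDR 0.00252). LOC101928034 itself did not pass the test in this line (0.24 ± 0.233, FDR 0.381).

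S100A10 showed the largest repression among the members. Its Control libraries read 407, 404, 410 and 418 CPM and its Dox libraries 275, 275, 260 and 277 CPM, with a wide gap between the groups. The log2 fold change was -0.59 ± 0.0224 (FDR 6.04e-28), a fall of 1.51-fold. S100A11, another annexin partner, was 0.13 lower on the log2 scale with no overlap (166, 159, 169 and 166 CPM against 156, 155, 147 and 148 CPM; -0.13 ± 0.0260, FDR 6.29e-05). S100A13 fell by as little (-0.12 ± 0.0472, FDR 0.0289). S100A16 rose by 0.27 ± 0.0538 (FDR 4.56e-05), from 15.7 to 16.9 CPM up to 19.1 to 20.9 CPM. S100A6, the most abundant member, was 0.07 ± 0.0232 higher (FDR 0.00901), and this was the only member whose Control libraries (568 to 603 CPM) and Dox libraries (585 to 635 CPM) overlapped. In all, 7 of the 8 members did not overlap between the groups, against 42.3% of all genes tested. Since gains and losses offset each other, the share of all counts taken by the 8 genes was 0.132% ± 0.00178 in Control and 0.130% ± 0.00373 in Dox.

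S100A2, S100A4 and S100A10 were called under every alternative, with log2 fold changes of 1.78 to 1.92, 0.53 to 0.58 and -0.61 to -0.56. The smaller changes are less secure. In a single fit of all 24 libraries, where 23.2% of all genes changed, these 3 were the only members called, while the log2 fold changes of the members still ran from -0.60 to 1.86. S100A13 was lost with DESeq2 (FDR 0.0785), with library size in place of TMM, with the length trend removed and without any of 4 single libraries, and S100A6 was lost without Dox replicate 2 (FDR 0.0779). Epithelial markers moved in the same libraries: KRT8 (-1.30), KRT18 (-1.10), KRT19 (-1.07) and EPCAM (-0.22) fell, KRT7 (1.64) and CDH1 (0.82) rose, and PRSS1 went from 0.0565 to 3.15 CPM. Their part in the S100 results was not tested.

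**Figure D3:**
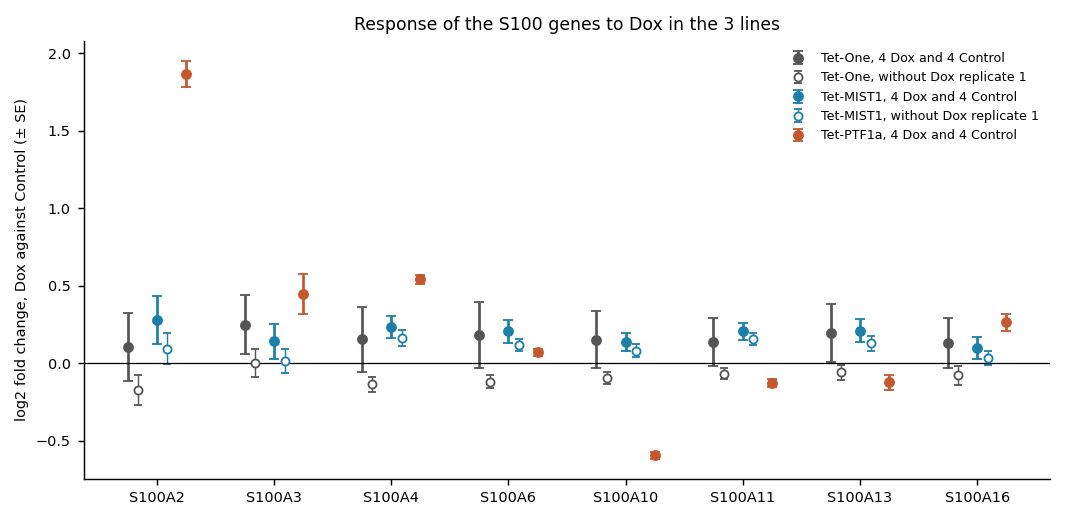
Log2 fold change with Dox of each S100 gene in the 3 lines, with its SE (filled, all 8 libraries of a line; open, without Dox replicate 1 in Tet-One and Tet-MIST1). S100A2 stood at 1.87 and S100A10 at -0.59 in Tet-PTF1a, and without Dox replicate 1 the Tet-One values lay between -0.17 and 0.00.

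The response of Tet-PTF1a to Dox was set against that of the empty plasmid line in a test of the interaction of line and Dox. In this test S100A2 and S100A10 differed between Tet-PTF1a and Tet-One, 2 of the 8 members where 12.8% of all genes differed. The log2 difference between the responses was 1.75 ± 0.270 for S100A2 (FDR 3.05e-04) and -0.75 ± 0.193 for S100A10 (FDR 0.0168). Of the other 6, S100A4 showed a difference of 0.38 ± 0.223 (FDR 0.323). Without Dox replicate 1 of Tet-One, 6 members differed, where 30.7% of all genes did: S100A2 (2.04), S100A4 (0.68 ± 0.0546, FDR 5.88e-11), S100A3 (0.45), S100A16 (0.35), S100A6 (0.19) and S100A10 (-0.50). This library set the direction for S100A6, whose difference with all libraries was -0.11 ± 0.227 (FDR 0.806). With the length trend removed the same 6 were called, where 19.7% of all genes were, and S100A6 was again on the positive side (0.16, FDR 0.0388).

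Set against Tet-MIST1, 5 members responded differently in Tet-PTF1a, where 36.4% of all genes did. S100A2 (1.60 ± 0.211, FDR 6.71e-06) and S100A4 (0.32 ± 0.0826, FDR 0.00475) had the higher response in Tet-PTF1a. S100A10 (-0.72 ± 0.0685, FDR 4.39e-08), S100A11 (-0.32 ± 0.0642) and S100A13 (-0.32 ± 0.0918) had the lower one. Leaving out Dox replicate 1 of Tet-MIST1 gave 7, where 40.8% of all genes differed, with S100A3 (0.45) and S100A16 (0.25) added. A single fit of all 24 libraries, where 20.1% of all genes differed, left 2, S100A2 and S100A10. The 2 interaction tests share the Tet-PTF1a libraries.

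In Tet-MIST1, changes were small. All 8 log2 fold changes were above 0, from 0.10 to 0.28, and 2 genes passed the test, where 20.6% of 13623 genes did (11.9% upwards). S100A11 read 388, 398, 385 and 393 CPM in Control and 494, 412, 441 and 444 CPM in Dox, without overlap, and rose by 0.21 ± 0.0549 (FDR 0.0222). S100A4 read 86.0, 96.5, 91.9 and 96.5 CPM in Control and 123, 109, 106 and 94.5 CPM in Dox, with overlap, and rose by 0.23 ± 0.0724 (FDR 0.0405). In both genes Dox replicate 1 was the highest library. S100A6 and S100A13 had no overlap either, with the higher values in Dox, and missed the limit (0.21, FDR 0.0667, and 0.21, FDR 0.0592). These 3 members without overlap stand against 12.8% of all genes with Dox libraries above Control. S100A2, which rose most in Tet-PTF1a, had 5.81 to 11.1 CPM in Dox against 6.24 to 7.41 CPM in Control and a log2 fold change of 0.28 ± 0.156 (FDR 0.213). S100A10 (0.14, FDR 0.119), S100A3 (0.14, FDR 0.379) and S100A16 (0.10, FDR 0.309) did not pass.

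Calls in Tet-MIST1 moved with the processing. When Dox replicate 1 was left out the changes were smaller and 4 genes passed, where 25.6% of all genes did: S100A11 (0.16 ± 0.0385, FDR 0.00437), S100A4 (0.16 ± 0.0501, FDR 0.0180), S100A6 (0.12 ± 0.0389, FDR 0.0275) and S100A13 (0.13 ± 0.0476, FDR 0.0486). With the length trend removed no member passed, where 24.1% of all genes did, and the log2 fold changes ran from -0.03 to 0.14. No member passed without any one of the 4 Control libraries, where 962 to 1163 of all genes rose and 474 to 820 fell (13601 to 13606 tested). The exact test of edgeR and DESeq2 each called S100A4, S100A6, S100A11 and S100A13. Of all 13623 genes, 1862 rose and 1526 fell by the exact test, and 1778 rose and 1441 fell by DESeq2.

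In Tet-One, where Dox induces no factor, no member passed the test, and no gene of 13428 did (0%). No member reached an unadjusted p under 0.05, by edgeR or by DESeq2, while 401 of all genes did by edgeR. All 8 log2 fold changes were nevertheless above 0, from 0.11 in S100A2 to 0.25 in S100A3, and 1 library set this sign. S100A6 read 995, 1036, 922 and 1007 CPM in Control and 1740.5, 933, 920.3 and 886 CPM in Dox. S100A4 read 216, 231, 195 and 216 CPM in Control and 368, 198, 198 and 190.3 CPM in Dox. In none of the 8 members were Control and Dox free of overlap (2.44% of all genes were), since Dox replicate 1 lay above all Control libraries and the other 3 Dox libraries lay at or below the Control levels or among them. Leaving it out gave log2 fold changes from -0.17 in S100A2 to 0.00 in S100A3, and again no member passed, where 0.00746% of all genes (1 gene) did. With the length trend removed they ran from -0.09 to 0.04.

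This library deviated by exon length. Deviation here is the log2 CPM of a library minus the mean of the other libraries of its group. Over 10700 genes with a mean above 5 CPM in Tet-One, it correlated with exon length in Dox replicate 1 with a Spearman coefficient of -0.76. This is a correlation across genes, which are not independent replicates. Genes with at most 1500 bases of exon (1203 genes) stood 0.75 above that mean at the median, and genes with at least 5000 bases (2795 genes) stood 0.52 below it. The 8 S100 genes stood 0.67 to 0.93 above it, with a median of 0.80. In Dox replicate 1 of Tet-MIST1 the coefficient was -0.70, the short genes stood 0.24 above that mean and the S100 genes 0.19 to 0.59 above it. In the 8 libraries of Tet-PTF1a the coefficients lay between -0.35 and 0.28, and the members' medians between -0.09 and 0.04. Whether other differences between these libraries moved with length was not tested.

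**Figure D4:**
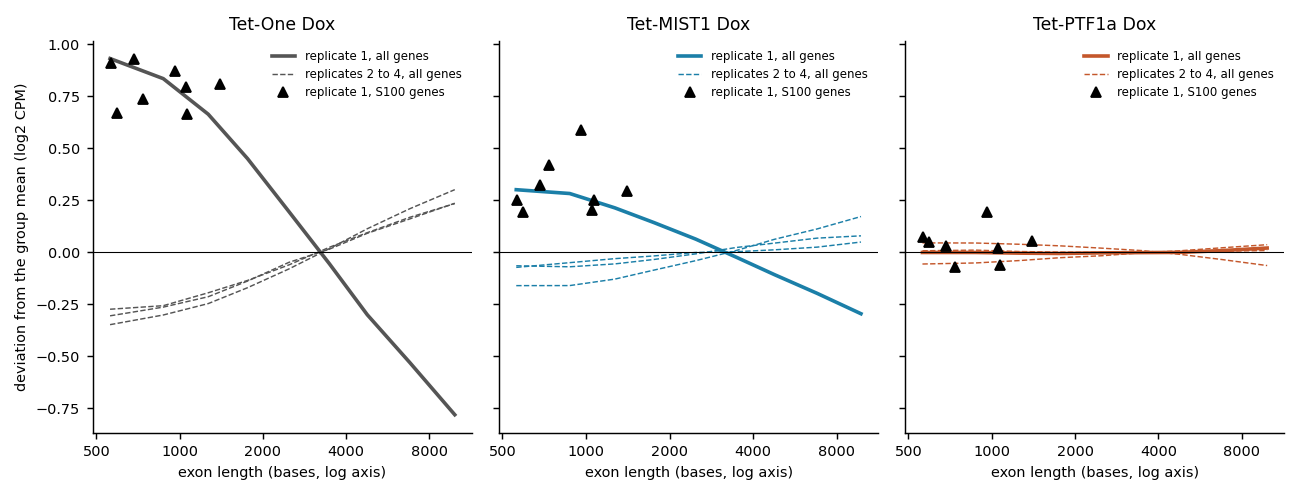
Median deviation of log2 CPM in 9 bins of exon length (log axis) for the 4 Dox libraries of each line (thick, replicate 1, and dashed, replicates 2 to 4), with the 8 S100 genes of replicate 1 as triangles. Deviations are from the mean of the other libraries of the group, which the axis names the group mean. The triangles of Tet-One lay between 0.67 and 0.93, where the line for all genes stood at 0.93, 0.84 and 0.66 at 560.5, 873 and 1269 bases. S100A11 (594 bases) lay below that line at 0.67. The triangles of Tet-PTF1a lay between -0.07 and 0.20.

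No member passed the test for a difference in response between Tet-MIST1 and Tet-One (differences of -0.11 to 0.16, smallest unadjusted p 0.589 by edgeR and 0.595 by DESeq2), where 1.66% of all genes differed. This count also rested on 1 library. Without Dox replicate 1 of Tet-One, S100A4 (0.37 ± 0.0948, FDR 0.0146), S100A6 (0.33), S100A11 (0.28) and S100A10 (0.24) had the higher response in Tet-MIST1, 4 members where 13.9% of all genes differed. When Dox replicate 1 of both lines was left out 3 did, where 16% of all genes differed: S100A4 (0.29 ± 0.0758, FDR 0.0116), S100A6 (0.22 ± 0.0577, FDR 0.00943) and S100A11 (0.21 ± 0.0504, FDR 0.00584). With the length trend removed none did, where 4.6% of all genes differed.

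A list of 30 genes, called partners here, held proteins that S100 proteins bind and others only linked with them, such as PLAU and PLAUR. Of these, 25 were tested in Tet-PTF1a, where 48.2% of all genes changed: 5 rose, 9 fell and 11 did not pass, with a median log2 fold change of -0.03 against 0.00 over all genes. The 3 largest changes were those of KCNK3, AHNAK and PLAU. KCNK3, a potassium channel that S100A10 binds, rose from 5.89 ± 0.497 to 20.6 ± 0.517 CPM (1.77 ± 0.0668, FDR 4.57e-28). AHNAK, the giant scaffold protein anchored by the S100A10 and annexin A2 tetramer, fell from 4753 ± 132 to 2200.0 ± 149 CPM (-1.11 ± 0.0535, FDR 3.34e-06). PLAU, the urokinase that activates plasminogen at the cell surface, rose from 178 ± 3.45 to 379 ± 10.5 CPM (1.09 ± 0.0234, FDR 2.39e-38). Chosen after their values were seen, ANXA2, the annexin partner of S100A10, changed by little (1769 ± 14.1 to 1687 ± 28.3 CPM, -0.07 ± 0.0182, FDR 0.00158), and PLAUR, the urokinase receptor, did not pass (-0.14 ± 0.143, FDR 0.427).

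**Figure D5:**
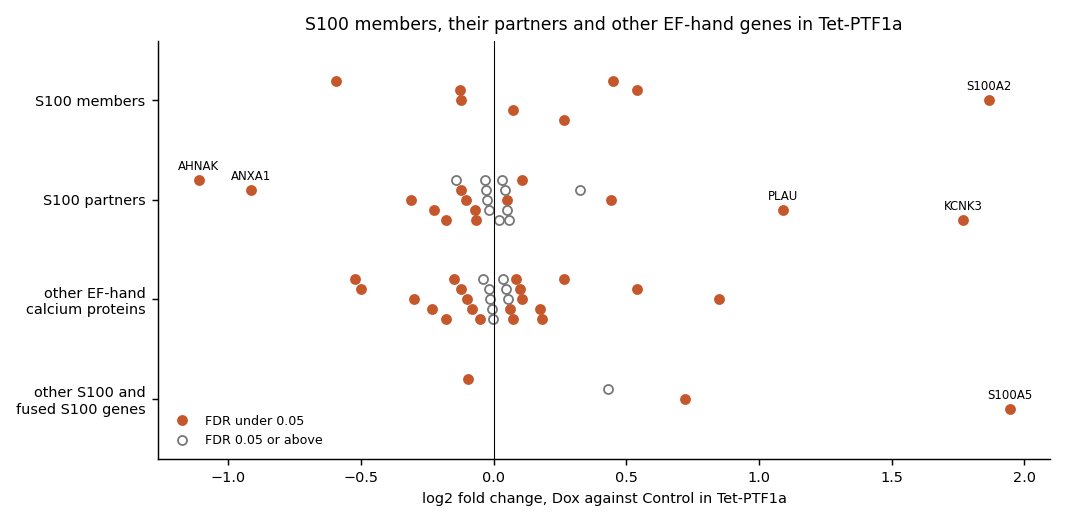
Log2 fold change with Dox in Tet-PTF1a of the S100 members, the partners, other EF-hand calcium proteins and other S100 and fused S100 genes, 1 point per gene tested (filled, FDR under 0.05; vertical offsets have no meaning). S100A2 (1.87) and S100A5 (1.94) lay far to the right, and AHNAK (-1.11) lay farthest to the left.

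In Tet-MIST1, where 20.6% of all genes changed, 27 partners were tested, 3 rose and 1 fell. CACYBP, the S100A6-binding adaptor, rose by 0.23 ± 0.0691 (FDR 0.0369), the annexin gene ANXA6 by 0.20 ± 0.0416 (FDR 0.00670), and IQGAP1, a scaffold that binds several S100 proteins, fell by 0.25 on the log2 scale (-0.25 ± 0.0791, FDR 0.0439). Without Dox replicate 1 of Tet-MIST1, 5 partners rose and 2 fell, where 25.6% of all genes changed, with CACYBP at 0.16, ANXA6 at 0.21 and IQGAP1 at -0.16, each still called. In Tet-One none of 25 passed, with or without Dox replicate 1.

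Of 30 genes for other EF-hand calcium proteins, 28 were tested in Tet-PTF1a, where 48.2% of all genes changed, and 10 rose and 10 fell. CALB2, the calretinin gene, rose by 0.54 ± 0.228 at about 1 CPM (FDR 0.0293), and EFHD1, a mitochondrial calcium sensor, fell from 23.1 ± 0.808 to 16.1 ± 0.542 CPM (-0.52 ± 0.0526, FDR 5.03e-12). In Tet-MIST1, where 20.6% of all genes changed, 4 of 28 rose and 1 fell. EFHD1 went the other way there, with a rise of 0.37 ± 0.0837 (FDR 0.0108), the centrin gene CETN2 rose by 0.21 ± 0.0578 (FDR 0.0257), and the calpain gene CAPN2 had a log2 fold change of -0.20 ± 0.0477 (FDR 0.0131). These counts were 5 and 3 without Dox replicate 1 of Tet-MIST1, where 25.6% of all genes changed, and EFHD1 (0.43), CETN2 (0.16) and CAPN2 (-0.19) were still called. With the length trend removed CETN2 was no longer called (0.09, FDR 0.121). In the interaction test the response of EFHD1 was lower in Tet-PTF1a than in Tet-MIST1 by 0.88 on the log2 scale (-0.88 ± 0.0961, FDR 3.15e-07; -0.94 without Dox replicate 1 of Tet-MIST1). In Tet-One none of 27 passed, with or without Dox replicate 1.

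Other S100 genes and genes for fused S100 proteins were few and low. Of 17, 4 were tested in Tet-PTF1a, where 48.2% of all genes changed (23.8% upwards). S100A5, whose gene lies between S100A6 and S100A4, rose from 0.247 ± 0.0954 to 1.05 ± 0.156 CPM (5 to 38 counts; 1.94 ± 0.304, FDR 1.23e-08), and TCHH, the trichohyalin gene, from 0.588 ± 0.106 to 1.04 ± 0.176 CPM (0.72 ± 0.238, FDR 0.00499). S100PBP, which encodes an S100P-binding protein, fell from 62.4 ± 2.14 to 58.4 ± 1.26 CPM (-0.10 ± 0.0338, FDR 0.0163). S100A1 did not pass there (0.43 ± 0.205, FDR 0.0606) but rose in Tet-MIST1 from 1.73 ± 0.186 to 2.46 ± 0.418 CPM (0.52 ± 0.136, FDR 0.0185). It was still called without Dox replicate 1 of Tet-MIST1 (0.50, FDR 0.0110) and not with the length trend removed (0.37, FDR 0.0645). The difference between these 2 responses of S100A1 did not pass the interaction test (-0.07 ± 0.245, FDR 0.861). Between the outermost members on chromosome 1 (151955386 to 153606568) the tables listed 5 other genes. Of these, S100A5, TCHH and FLG-AS1, a noncoding gene antisense to filaggrin (0.31 ± 0.0832, FDR 0.00188), rose in Tet-PTF1a, where 23.8% of all genes rose. S100A1 and LOC101928034 did not pass. S100A1, S100A5 and TCHH are also among the 17 above, so the 2 lists are not separate evidence.

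Among 13513 genes compared over the 24 libraries, those whose log2 CPM followed S100A2 closely included HM13 (Pearson coefficient 0.92), an intramembrane peptidase of the endoplasmic reticulum, and FKBP1A (0.91), the small FK506-binding prolyl isomerase. The libraries of a line share that line's table and clone, so these coefficients describe 6 groups more than 24 independent points. HM13 went from 182 ± 2.79 to 216 ± 5.40 CPM and FKBP1A from 473 ± 10.6 to 549.8 ± 9.96 CPM with Dox in Tet-PTF1a.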

How the data were processed

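Polyadenylated RNA of 24 Panc-1 libraries was sequenced, and per the labels and the paper reads were aligned by the authors to hg19 with TopHat. The submitters' processing notes also name HTSeq, DESeq and edgeR. How HTSeq treated strand is not given in the sources used here. For each line the authors deposited unnormalized counts per gene and CPM, a signal whose scaling is not given in the sources used here. Their methods give a filter of more than 0.5 CPM in at least 4 libraries. The same number of genes, 13879, was listed for Tet-One and Tet-MIST1. Within 1 line this filter kept 13428 (Tet-One) and 13623 (Tet-MIST1), and over the libraries of both lines it kept 13879. For Tet-PTF1a 14053 genes were listed, and the filter within that line kept 14053. They also deposited their own comparisons as log2 fold changes with p-values and FDR, which were not used. Names and lists were chosen with earlier results of these data known.

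Dox and Control counts were compared within each line, and interactions and Control levels over 2 lines, in edgeR 4.0.16 (R 4.3.3) with its quasi-likelihood F test (TMM, robust estimation, prior count of 2, genes above 0.5 CPM in at least 4 libraries, two-sided, Benjamini-Hochberg over all genes tested, called at FDR under 0.05). SE is the log2 fold change divided by the root of F. The authors' CPM were divided by exon length for levels per kb. Procedures were tested on simulated data. For the Dox and interaction tests these had the same spread in every line and no deviating library, unlike the libraries here, and larger changes than most members showed. Each library counted as 1. Replicates differed beyond sampling noise in all 36 pairs (chi-square per degree of freedom 1.39 to 238, highest in pairs with Dox replicate 1 of Tet-One). Such spread cannot tell whether libraries came from separate cultures.

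Named genes were the members, the list genes with the 3 largest changes past the limit in a line, the called genes among the members on chromosome 1, the 3 genes most correlated with S100A2, and both induced factors. Alternatives were the exact test, DESeq2 1.42.0, library size scaling, no filter, the replicate block, removal of a loess trend with log2 exon length (span 0.3), all 24 libraries in one fit, and each library left out. Of the genes this rule names, 2 are not reported here. Protein sequences were not used here.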

Additional observations from a re-analysis of the deposited data

Results flagged for a closer look

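Each group of 4 libraries was examined for a library far from the other 3 (Dixon's criterion, 48 groups of gene and condition, where chance flags about 1 in 20), and 9 groups held one. In 7 of them it was Dox replicate 1 of Tet-One, the highest library of its group: S100A3 at 7.59 CPM, S100A4 at 368 CPM, S100A6 at 1740.5 CPM, S100A10 at 595 CPM, S100A11 at 403 CPM, S100A13 at 56.2 CPM and S100A16 at 30.3 CPM. S100A2 was highest in the same library (28.2 CPM) without meeting the criterion. The other 2 were S100A13 in Dox replicate 1 of Tet-MIST1, the highest at 55.0 CPM, and S100A10 in Dox replicate 3 of Tet-PTF1a, the lowest at 260 CPM, which lay below all Control libraries like the other 3 Dox libraries.

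The response to Dox differed between lines by the interaction test of edgeR in 7 cases. Tet-PTF1a differed from Tet-One in S100A2 (1.75 on the log2 scale, FDR 3.05e-04) and S100A10 (-0.75, FDR 0.0168). It differed from Tet-MIST1 in S100A2 (1.60, FDR 6.71e-06), S100A4 (0.32, FDR 0.00475), S100A10 (-0.72, FDR 4.39e-08), S100A11 (-0.32, FDR 5.09e-04) and S100A13 (-0.32, FDR 0.00919). S100A2 was higher in 4 of 4 Tet-PTF1a Dox libraries than in any Control library of that line, and S100A10 lower in 4 of 4.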

How the results depend on the processing

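In Tet-MIST1 the count of members called depended on the method: 4 with the exact test and with DESeq2, and 0 with the replicate block, with the length trend removed, with both together and with all 24 libraries in one fit, against 2 in the main analysis, and 0 to 4 when 1 library was left out. Calls over all genes moved too. Of 13623 genes, 1617 rose and 1195 fell in the main analysis, 1862 and 1526 with the exact test, and 1778 and 1441 with DESeq2. These counts were 962 and 501 with the block, 1823 and 1461 with the length trend removed, and 1511 and 1073 with both. With all 24 libraries in one fit they were 1064 and 641 of 13521. Same-numbered libraries did not deviate together (correlations of -0.41 to 0.06 in Tet-MIST1, -0.39 to 0.37 in Tet-One and -0.03 to 0.09 in Tet-PTF1a), so the numbers were not taken as pairs. The block gave 0 members in Tet-One, 8 in Tet-PTF1a, and 0, 2 and 5 in the interactions, as in the main analysis. In Tet-PTF1a, 3 members were called with all 24 libraries in one fit, and 6 to 8 when 1 library was left out. The interaction of Tet-PTF1a with Tet-One gave 6 members with the length trend removed and 2 to 6 when 1 library was left out, that with Tet-MIST1 gave 2 with all 24 libraries in one fit and 5 to 7 when 1 was left out, and that of Tet-MIST1 with Tet-One gave 3 without Dox replicate 1 of both lines and 0 to 4 when 1 was left out. The fit of all 24 libraries shares 1 spread over lines whose spreads differ, and for the other changes the cause was not tested.

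Values that changed sign were fold changes of Tet-One and Tet-MIST1 and differences between responses; no fold change of Tet-PTF1a and no Control difference did. With the length trend removed, the log2 fold changes in Tet-One became -0.093 for S100A2, -0.079 for S100A4, -0.048 for S100A6, -0.033 for S100A10, -0.067 for S100A11 and -0.042 for S100A16, and with the block added they were -0.095, -0.078, -0.048, -0.034, -0.069 and -0.041. With 1 library left out they ran from -0.17 to 0.24 for S100A2, -0.13 to 0.25 for S100A4, -0.12 to 0.28 for S100A6, -0.096 to 0.24 for S100A10, -0.066 to 0.21 for S100A11, -0.059 to 0.28 for S100A13 and -0.077 to 0.20 for S100A16, the lowest in each case without Dox replicate 1. In Tet-MIST1 the length correction gave -0.0090 for S100A3 and -0.026 for S100A16, and -0.015 and -0.026 with the block. For Tet-PTF1a against Tet-One the difference in response of S100A6 was 0.16 with the length trend removed and ran from -0.21 to 0.19 with 1 library left out, and against Tet-MIST1 it was 0.052 with the length trend removed. For Tet-MIST1 against Tet-One, S100A10 gave 0.017 with library size scaling, 0.023 with the block, 0.047 with the length trend removed and 0.17 without Dox replicate 1 of both lines, S100A16 gave 0.015 with the length trend removed and 0.098 without both libraries, and S100A3 gave 0.0041 without both libraries. With 1 library left out these differences ran from -0.017 to 0.46 for S100A2, -0.24 to 0.15 for S100A3, -0.024 to 0.37 for S100A4, -0.078 to 0.33 for S100A6, -0.11 to 0.24 for S100A10, -0.0058 to 0.28 for S100A11, -0.076 to 0.27 for S100A13 and -0.11 to 0.18 for S100A16. All 8 Control differences of Tet-MIST1 and at least 7 of Tet-PTF1a were called under every alternative run. For the interactions of Tet-PTF1a, leaving out Dox replicate 1 of both other lines is the same as leaving out 1 library, and it was not run apart. S100A3, with 41 counts in its smallest library, was the member most limited by depth.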
